A study of Mus musculus with 3 samples.

Results

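Inflammatory monocyte and Cxcl10+ monocyte spots were examined in spatial RNA sequencing (Visium) of regenerating mouse muscle. A Visium spot is a small barcoded region of a slide that captures polyadenylated RNA from several cells or parts of cells lying above it. For each spot, theta is an estimate of the fraction of its transcripts that came from a given cell type of a single-cell reference, and the thetas of 27 types sum to 1. Member spots were chosen by these measured values, as spots in which the theta of inflammatory monocytes or of Cxcl10+ monocytes was at least 0.02, and they numbered 384 of 2758. They were set against the 2034 comparison spots of the same sections in which both thetas were below 0.01, and the 340 spots between the limits were left out. Inflammatory monocytes reached 0.02 in 109 spots and Cxcl10+ monocytes in 338.

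The sections came from tibialis anterior muscles of female C57BL6/J mice aged 5 months, collected 2, 5 or 7 days post-injury (dpi) with notexin, a snake venom phospholipase that destroys myofibers. Every section was from an injured muscle, with no uninjured section among them. With a lone section at each time, differences over time could not be weighed against the spread between animals. No test was made, and spots were not treated as replicates. Intervals given with shares of spots are exact (Clopper-Pearson) at 95% and cover counting error only.

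Monocytes are blood cells of the myeloid lineage that enter injured muscle within days and give rise to macrophages. Inflammatory monocytes, which in mice are known for high surface Ly6C, are recruited from the blood, whereas patrolling monocytes move along vessel walls. Cxcl10 encodes an interferon-induced chemokine that attracts T cells and NK cells. M1 macrophages are associated with the clearing of debris and M2 macrophages with repair, and both occur in regenerating muscle.

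The 3 sections held 859, 933 and 966 spots at 2, 5 and 7 dpi, with medians of 5786, 11221 and 15135 unique molecular identifiers (UMIs, counts of captured transcripts) per spot. The same barcoded array positions recur in different sections, 505 of them in all 3, and mark a position on an array rather than a shared cell. Neither Cxcl10 nor Ly6c2 could be checked in the spots, because only values per spot and no values per gene were used here. The subset names are therefore those of the reference. The study's text describes patrolling monocytes as Fabp5-high and without Cx3cr1 or Ly6c2. A marker list of the study instead has Ly6c2 under patrolling and Fabp5 under inflammatory monocytes. Whether these 2 names were exchanged in one of the sources could not be settled, and the values below stand under the names of the deposited thetas.

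Spots with these monocytes were most common at 2 dpi. They made up 246 of 859 spots at 2 dpi, 28.6% (25.6 to 31.8%), then 85 of 933 at 5 dpi, 9.11% (7.34 to 11.1%), and 53 of 966 at 7 dpi, 5.49% (4.14 to 7.12%). The share at 7 dpi was thus 5.22-fold lower than at 2 dpi. The subsets differed in how many spots remained. Inflammatory monocytes reached 0.02 in 90 spots at 2 dpi, 10.5% (8.51 to 12.7%). Only 12 spots reached it at 5 dpi, 1.29% (0.666 to 2.24%), and 7 at 7 dpi, 0.725% (0.292 to 1.49%). For Cxcl10+ monocytes the counts were 211, 24.6% (21.7 to 27.6%), 78, 8.36% (6.66 to 10.3%), and 49, 5.07% (3.78 to 6.65%). The share at 7 dpi was 14.5-fold lower than at 2 dpi for the inflammatory subset and 4.84-fold lower for the Cxcl10+ subset. At a minimum theta of 0.01 in place of 0.02 these were 5.96-fold and 3.17-fold. The inflammatory counts at that minimum were 265, 46 and 50 spots, so that the share at 7 dpi was 1.05 times that at 5 dpi, and 2.61 times in spots with 5000 to 10000 UMIs (6 and 10 spots), in place of 0.563 times.

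These shares used the values that chose the spots and are descriptions. The lowest theta inside the limit lay between 0.0201 and 0.0206 and the highest outside it between 0.0186 and 0.01999 over both subsets and the 3 sections. At 2 dpi, 27 spots lay between 0.018 and 0.02 for each subset, and 11 inflammatory and 13 Cxcl10+ spots between 0.02 and 0.022. At a minimum of 0.05 no spot held inflammatory monocytes at 7 dpi, which allows a share of up to 0.381%, 1 did at 5 dpi and 20 did at 2 dpi. Cxcl10+ monocytes reached 0.05 in 79, 13 and 15 spots.

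Mean thetas were low. The mean theta of inflammatory monocytes was 0.0102, 0.00349 and 0.00362 in the order of the time points, and that of Cxcl10+ monocytes 0.0175, 0.00711 and 0.00659. Both subsets were lower at 5 than at 2 dpi, by 2.92-fold and 2.47-fold, and the 7 dpi means were 1.04 and 0.927 times those at 5 dpi. Among all 27 types, 29.6% had a mean at least 2-fold lower at 5 than at 2 dpi and 25.9% at 7 than at 2 dpi. Ordered by the ratio of 7 to 2 dpi, patrolling monocytes came lowest at 0.0814, then M1 macrophages at 0.301, inflammatory monocytes at 0.356, T cells at 0.373 and Cxcl10+ monocytes at 0.376.

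**Figure D1:**
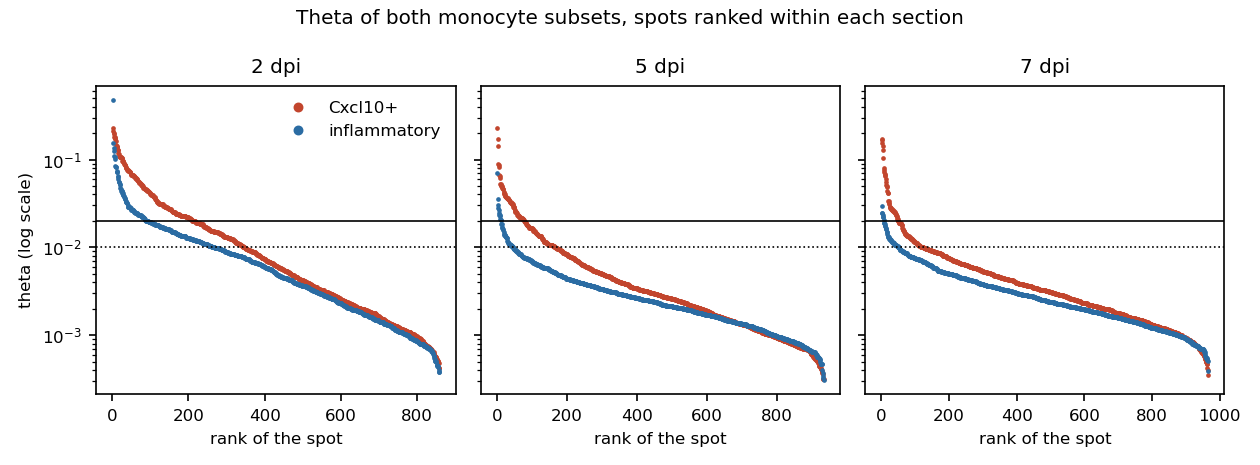
Theta (log scale) of inflammatory (blue) and Cxcl10+ (red) monocytes in every spot, each ranked from highest to lowest within its section, with the member limit of 0.02 (solid line) and the comparison limit of 0.01 (dotted line). The Cxcl10+ curve crosses the solid line at 211, 78 and 49 spots and the inflammatory curve at 90, 12 and 7.

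The tenth of spots with the highest theta held 51.0, 52.1 and 49.8% of the summed Cxcl10+ theta at 2, 5 and 7 dpi, and 45.5, 35.9 and 32.1% of the summed inflammatory theta. Spots at or above 0.02 held 75.3, 48.0 and 38.6% of the summed Cxcl10+ theta and 46.4, 10.6 and 4.79% of the summed inflammatory theta, so that most of the inflammatory theta at 5 and 7 dpi lay in spots with low values. The inflammatory tail shortened most. Its highest theta went from 0.475 to 0.0696 and 0.0298, whereas the highest Cxcl10+ theta was 0.231, 0.229 and 0.171. The value of 0.475 stood alone, with the next inflammatory spot at 0.155. Without it the 2 dpi mean was 0.00964 in place of 0.0102. That spot had 12379 UMIs and 3261 genes, its largest other type was type IIb myonuclei at 0.333, and its Cxcl10+ theta was 0.0187.

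The spots with the highest Cxcl10+ theta differed between sections in what lay beside them. At 2 dpi the top spot held type IIb myonuclei at 0.257 and inflammatory monocytes at 0.108. The next spot, at a Cxcl10+ theta of 0.208, held patrolling monocytes at 0.262. At 5 dpi the top spot held Cx3cr1-hi M2 macrophages at 0.260 and dendritic cells at 0.156. At 7 dpi it held adipogenic fibro/adipogenic progenitors (FAPs, the connective tissue progenitors of muscle) at 0.152 and pro-remodeling FAPs at 0.134.

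As parts of the immune transcripts, both subsets varied less over time than in their mean thetas. The thetas of the 11 immune types summed to a mean of 0.173, 0.0555 and 0.0632 per spot. Inflammatory monocytes made up 5.88, 6.29 and 5.73% of this sum at the 3 times and Cxcl10+ monocytes 10.1, 12.8 and 10.4%. In spots with 5000 to 10000 UMIs the parts were 5.83, 6.92 and 7.21% for inflammatory and 10.9, 14.8 and 11.4% for Cxcl10+ monocytes. Patrolling monocytes went from 45.0 to 10.6 and 10.1%, and Cx3cr1-hi M2 macrophages from 6.04 to 26.1 and 28.5%. A theta cannot tell fewer cells from less RNA per cell, and spots with few immune transcripts contribute small thetas to every immune type. At 5 and 7 dpi, 10.6 and 4.79% of the summed inflammatory theta lay in spots at or above 0.02. The steady inflammatory part could therefore not be told apart from such small thetas.

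In member spots these parts follow from the rule, since 78 of the 85 and 49 of the 53 later members were Cxcl10+ spots. The Cxcl10+ part was 12.7% of the members' summed immune theta at 2 dpi and then 23.0 and 24.5%, and that of inflammatory monocytes was 6.38, 5.64 and 4.46%. In comparison spots, which the rule held below 0.01, the Cxcl10+ part was 6.40, 8.23 and 6.78%. Cxcl10+ theta exceeded inflammatory theta in 195 of 246 members at 2 dpi (79.3%, 73.7 to 84.2%), 78 of 85 at 5 dpi (91.8%, 83.8 to 96.6%) and 49 of 53 at 7 dpi (92.5%, 81.8 to 97.9%). Over all spots it did so in 67.1, 62.9 and 61.9%. The median ratio of Cxcl10+ to inflammatory theta in members was 2.43, 5.54 and 5.16.

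Both subsets shared spots at 2 dpi. Of the 90 inflammatory spots, 55 also held Cxcl10+ monocytes (61.1%, 50.3 to 71.2%), against 22.1 expected from the spot counts of the 2 subsets, a ratio of 2.49. They were 26.1% of the 211 Cxcl10+ spots. Of all pairs of the 27 types with at least 5 shared spots expected, 52.5% of 219 reached 1.5 times the expected number at 2 dpi, so that such a ratio was common among pairs, and the pair of monocyte subsets came 20th from the highest. At 5 dpi, 5 of 12 inflammatory spots also held Cxcl10+ monocytes (41.7%, 15.2 to 72.3%), with 1.003 expected. At 7 dpi, 3 of 7 did (42.9%, 9.90 to 81.6%), with 0.355 expected. No ratio was formed from such small expected counts.

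Over all spots of a section, the thetas of the 2 subsets ranked spots alike. Spearman's rho was 0.87 over the 859 spots at 2 dpi, 0.79 over 933 at 5 dpi and 0.68 over 966 at 7 dpi. These points share a library, and the thetas of a spot share a denominator that myonuclei dominate. With theta rescaled to sum to 1 without the myonuclei, rho was 0.42, 0.39 and 0.42. Over the 300 pairs of the 25 types other than myonuclei, these subsets included, the median rho was 0.57, 0.37 and 0.27 before this rescaling and 0.18, 0.34 and 0.32 after it.

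By share of spots, patrolling monocytes were the most frequent of the 4 partner types at 2 dpi and Cx3cr1-hi M2 macrophages at 5 and 7 dpi. At 2 dpi patrolling monocytes were present at a theta of 0.02 or more in 193 of 211 Cxcl10+ spots, 91.5% (86.9 to 94.9%), and in 26.4% of the spots without Cxcl10+ monocytes. They were present in 71 of 90 inflammatory spots, 78.9% (69.0 to 86.8%), and in 38.1% of the others. The ratios to the expected counts were 2.16 and 1.86, the lowest of the 4 partner types for each subset. Patrolling monocytes were in 364 of the 859 spots, the most of the 4, and the highest ratio possible is lower for a more frequent type. The order of these ratios is therefore no order of how closely the types shared spots. At 5 dpi patrolling monocytes were in 15 of 78 Cxcl10+ spots, 19.2% (11.2 to 29.7%), and at 7 dpi in 9 of 49, 18.4% (8.76 to 32.0%), against 2.81 and 4.25% of the spots without. They were in 3 of 12 inflammatory spots at 5 dpi and in 0 of 7 at 7 dpi, which allows a share of up to 41.0%.

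Over all depths, Cx3cr1-hi M2 macrophages shared more spots with the Cxcl10+ subset than expected in each section. This type was in 42 of 78 Cxcl10+ spots at 5 dpi, 53.8% (42.2 to 65.2%), against 13.6% of the spots without, at 3.18 times the expected count. That pair came 4th from the highest of 103 pairs, of which 24.3% reached 1.5 times the expected count. At 7 dpi it was in 27 of 49 Cxcl10+ spots, 55.1% (40.2 to 69.3%), against 25.1% of those without, at 2.07 times the expected count, where 25% of 132 pairs reached 1.5 times. At 2 dpi it was in 61 of 211, 28.9% (22.9 to 35.5%), against 5.40%, at 2.59 times the expected count, the 16th highest of the 219 pairs. Both thetas were lower in deeper spots at 2 dpi, with a rho with the UMI count of -0.58 for Cx3cr1-hi M2 macrophages and -0.48 for Cxcl10+ monocytes. In spots with 5000 to 10000 UMIs at 2 dpi, described below, the shared count was only slightly above an expected count too small for a ratio. Seen from the partner, Cxcl10+ monocytes were in 63.5, 26.6 and 10.5% of the Cx3cr1-hi M2 spots of the successive sections. Of the inflammatory spots, 19 of 90, 9 of 12 and 4 of 7 held Cx3cr1-hi M2 macrophages.

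M1 macrophages were at a theta of 0.02 or more in 215, 15 and 12 spots of the 3 sections, so sharing with them could be described mainly at 2 dpi. They were then in 119 of 211 Cxcl10+ spots (56.4%, 49.4 to 63.2%) and 49 of 90 inflammatory spots (54.4%, 43.6 to 65.0%), at 2.25 and 2.18 times the expected counts. At 5 and 7 dpi they were in 7 of 78 and 1 of 49 Cxcl10+ spots, and in 1 of 12 and 2 of 7 inflammatory spots. Cx3cr1-lo M2 macrophages were in 106 of 211, 13 of 78 and 10 of 49 Cxcl10+ spots, and in 41 of 90, 4 of 12 and 2 of 7 inflammatory spots.

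**Figure D2:**
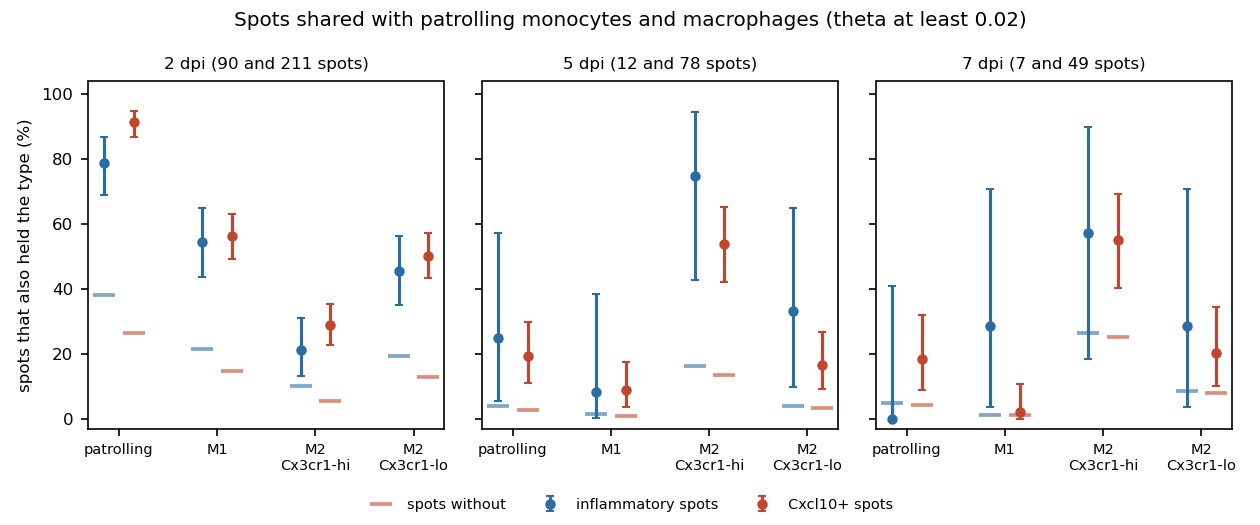
Share of inflammatory (blue) and Cxcl10+ (red) monocyte spots that also held each of 4 other myeloid types at a theta of at least 0.02 (points, with exact 95% intervals), beside the share in spots of the same section without that subset (horizontal marks in the same colour). Patrolling monocytes were in 91.5% of Cxcl10+ spots at 2 dpi and 19.2% at 5 dpi, while Cx3cr1-hi M2 macrophages were in 28.9 and 53.8%.

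Members at 2 dpi often held several of these 4 myeloid types at once. Of the 246 members, 35 held all 4 (14.2%, 10.1 to 19.2%) and 18 held none (7.32%, 4.39 to 11.3%), whereas 417 of 473 comparison spots held none (88.2%, 84.9 to 90.9%). The comparison shares without any were 89.1 and 71.6% at 5 and 7 dpi. At 5 and 7 dpi no member held all 4, and 33 of 85 (38.8%, 28.4 to 50.0%) and 18 of 53 (34.0%, 21.5 to 48.3%) held none.

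The immune type with the highest theta also differed between sections. It was patrolling monocytes in 175 of 246 members at 2 dpi (71.1%, 65.0 to 76.7%), Cxcl10+ monocytes in 31 and inflammatory monocytes in 12. At 5 dpi it was Cxcl10+ monocytes in 45 of 85 (52.9%, 41.8 to 63.9%) and Cx3cr1-hi M2 macrophages in 25, and at 7 dpi Cx3cr1-hi M2 macrophages in 22 of 53 (41.5%, 28.1 to 55.9%) and Cxcl10+ monocytes in 20. The lead of Cxcl10+ monocytes follows in part from the rule, which chose most of the later members by that theta. Cxcl10+ monocytes led in 5.29, 6.59 and 3.55% of comparison spots at the 3 times, where the rule held them below 0.01. In comparison spots patrolling monocytes led in 37.6% at 2 dpi, and Cx3cr1-hi M2 macrophages in 19.5% at 5 dpi and 34.5% (31.2 to 37.8%) at 7 dpi, an interval that lay within that of the members at 7 dpi. Inflammatory monocytes led in none of the 12 inflammatory spots at 5 dpi and in none of the 7 at 7 dpi, which allows shares of up to 26.5 and 41.0%. At 2 dpi they led in 12 of 90 (13.3%, 7.08 to 22.1%), 11 of which were among the 35 inflammatory spots without Cxcl10+ monocytes.

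Other non-muscle types were also higher in members, and the thetas of these types come from the same deconvolution that chose the spots. Of the 25 other types, 72, 48 and 44% had a mean theta at least 2-fold higher in members than in comparison spots at the 3 successive times, while 4, 8 and 8% were at least 2-fold lower. Patrolling monocytes averaged 0.176 in members and 0.0154 in comparison spots at 2 dpi, 11.4-fold higher. They were 4.31-fold higher at 5 dpi (0.0165 and 0.00383) and 1.82-fold higher at 7 dpi (0.0105 and 0.00579). Cx3cr1-hi M2 macrophages were 4.77-, 6.23- and 3.20-fold higher, with member means of 0.0196, 0.0475 and 0.0476. M1 macrophages were 6.90-, 2.37- and 2.33-fold higher and Cx3cr1-lo M2 macrophages 4.72-, 2.73- and 2.21-fold higher.

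Dendritic cells, which present antigen to T cells, were 4.22-, 4.14- and 6.48-fold higher in members, with a member mean of 0.0256 at 7 dpi. They were the leading immune type in 3 of the 53 members at 7 dpi. Over all spots of that section the highest dendritic thetas were 0.391, 0.273 and 0.186, and the median was 0.00235. T cells were 4.90-fold higher at 2 dpi at a member mean of 0.0145. NK cells were 4.79-fold higher at 2 dpi and 5.68-fold higher at 7 dpi, at member means of 0.0116 and 0.0106. As parts of the summed immune theta, which includes the monocyte subsets, both were lower in members at 2 dpi. T cells were then 3.85% in members and 6.12% in comparison spots, and NK cells 3.08 and 5.01%. At 7 dpi NK cells were 5.50 and 3.76%. T cells and NK cells shared 2.95 and 2.75 times the expected number of spots with Cxcl10+ monocytes at 2 dpi, the 6th and 13th highest of the 219 pairs. The ratio for T cells was similar with inflammatory monocytes, at 2.77 and the 11th highest, so it was not particular to the Cxcl10+ subset.

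Muscle stem cells (MuSCs) and their progeny had higher thetas in members at 2 dpi. Activated MuSCs were 3.80-fold, committed myoblasts 3.31-fold and quiescent MuSCs 2.07-fold higher in members. Fusing myocytes, which join into new fibers, were 2.13-fold higher at 2 dpi with a member mean of 0.0403, 2.73-fold at 5 dpi with 0.236 and 1.71-fold at 7 dpi with 0.192. Also at 2 dpi, stem-like endothelial cells were 2.78-fold higher, pro-remodeling FAPs 2.69-fold, stem FAPs 2.64-fold and tenocytes, the tendon cells, 2.04-fold. At 5 dpi adipogenic FAPs were 2.75-fold, activated MuSCs 2.44-fold and pro-remodeling FAPs 2.31-fold higher. At 7 dpi tenocytes were 4.19-fold and adipogenic FAPs 3.84-fold higher, and Cxcl10+ monocytes shared 3.06 times the expected number of spots with tenocytes, the highest of 132 pairs.

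Transcripts of mature fibers were lower. Type IIb myonuclei, the nuclei of fast glycolytic fibers, averaged a theta of 0.390 in members against 0.778 in comparison spots at 2 dpi. The later values were 0.406 against 0.646 at 5 dpi and 0.324 against 0.601 at 7 dpi. Type IIx myonuclei were 3.45-, 5.93- and 3.25-fold lower. Because the thetas of a spot sum to 1, a lower myonuclear theta leaves more room for every other type. After rescaling without myonuclei, patrolling monocytes were 4.62-fold higher in members at 2 dpi, 1.45-fold higher at 5 dpi and at 0.838 times the comparison mean at 7 dpi. Cx3cr1-hi M2 macrophages were then 1.09-, 2.83- and 1.84-fold higher. M1 macrophages were at 1.84, 0.874 and 0.988 times the comparison mean. Dendritic cells were at 0.962, 1.35 and 2.25 times, and fusing myocytes at 0.747, 1.39 and 0.982 times.

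The same rescaling put all the other muscle stem cell, connective tissue and endothelial types named for 2 dpi below the comparison mean, from 0.576 times for stem-like endothelial cells to 0.832 times for committed myoblasts, except activated MuSCs at 1.02 times. At 5 dpi activated MuSCs and adipogenic FAPs were at 0.832 and 0.795 times. At 7 dpi tenocytes remained 1.85-fold and adipogenic FAPs 1.14-fold higher, and NK cells 2.15-fold.

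**Figure D3:**
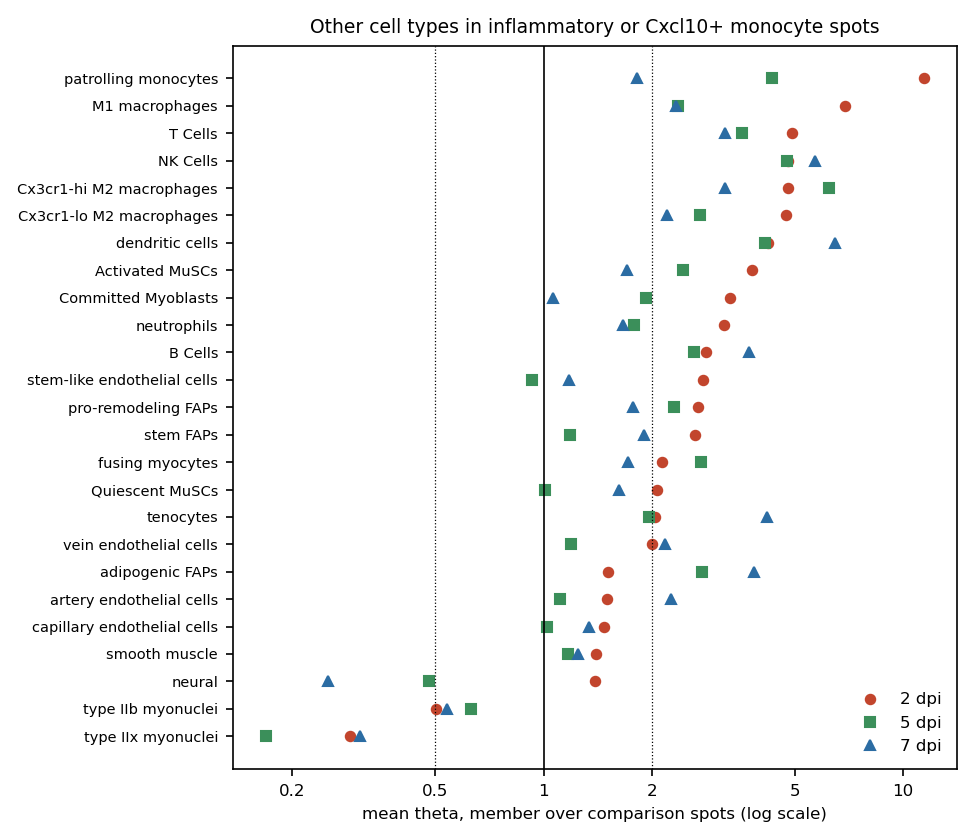
Mean theta in inflammatory or Cxcl10+ monocyte spots divided by the mean in comparison spots (log scale) for the 25 other cell types at 2 dpi (red circles), 5 dpi (green squares) and 7 dpi (blue triangles), with dotted lines at 2-fold lower and higher. Patrolling monocytes lie at 11.4, 4.31 and 1.82, and the myonuclei lie left of 1 in each section.

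Mitochondrial and ribosomal protein transcripts, which the deconvolution did not use, differed between members and comparison spots in each section. Mitochondrial transcripts were a median of 13.0% of UMIs in members and 34.5% in comparison spots at 2 dpi, 9.86 against 28.3% at 5 dpi, and 9.31 against 18.6% at 7 dpi. Only 1.22, 1.18 and 3.77% of members lay above the comparison median. Ribosomal protein transcripts were 8.56 and 4.20% at 2 dpi, 12.5 and 5.70% at 5 dpi, and 12.1 and 7.33% at 7 dpi. Of the members of each section, 100% lay above the comparison median. So did 96.4, 100 and 80% of the spots between the limits. Both percents are taken of the same UMI count, so a lower mitochondrial percent leaves more room for the other. Myofibers are rich in mitochondria, and the myonuclear theta was lower in members. The part of the lower myonuclear theta in these differences was not tested.

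The members also held more genes. The median number of genes detected was 1884 in members and 1723 in comparison spots at 2 dpi, 3307 against 2322 at 5 dpi, and 4157 against 2961 at 7 dpi. At 2 dpi this went with fewer transcripts, since the median UMI count was 4409.5 in members and 7239 in comparison spots, 0.609 times. At 5 dpi the medians were 11429 and 11309 UMIs, 1.01 times, and at 7 dpi 17779 and 15280, 1.16 times. The quartiles overlapped in all 3 sections. At 2 dpi, spots with only the inflammatory subset had a median of 5609 UMIs, those with only the Cxcl10+ subset 4189 (medians over 35 and 156 spots) and those with both 3627 (55 spots).

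**Figure D4:**
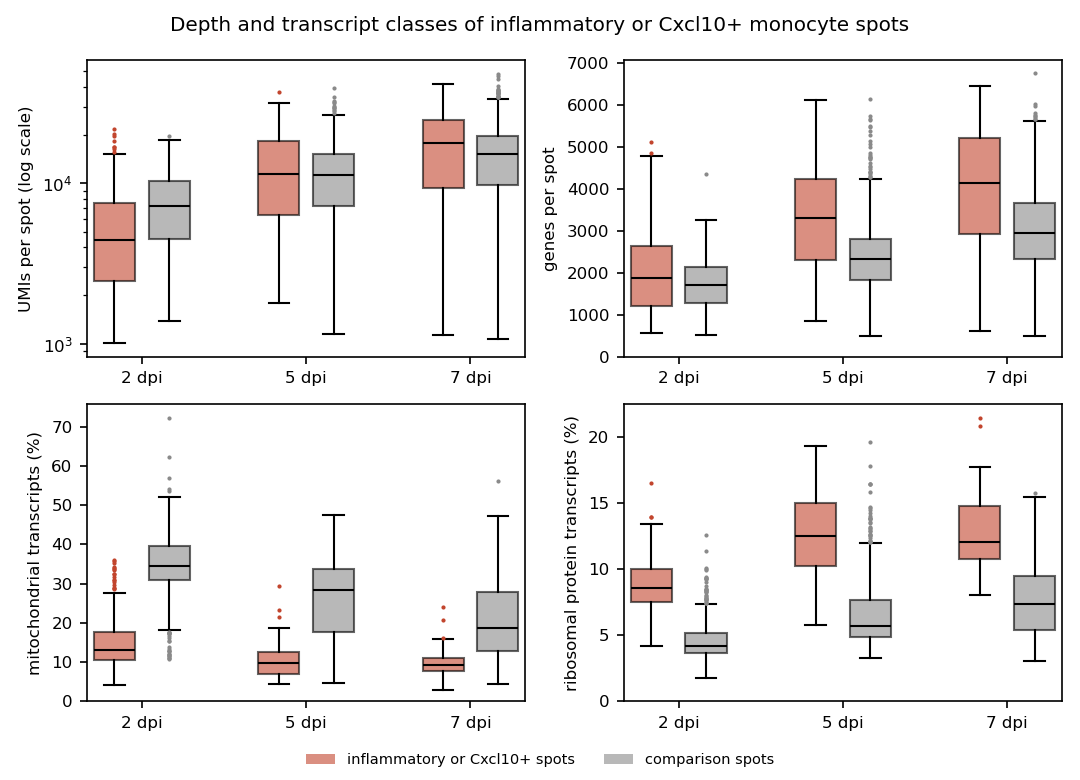
UMIs (log scale), genes, mitochondrial percent and ribosomal protein percent per spot in inflammatory or Cxcl10+ monocyte spots (red) and comparison spots (grey) of each section, as medians, quartiles, whiskers to 1.5 interquartile ranges and points beyond. Mitochondrial percent is lower (median 13.0 against 34.5 at 2 dpi) and ribosomal protein percent higher (8.56 against 4.20) in the monocyte spots at each time.

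Shallow spots held these subsets more often at 2 dpi. Spots of each section were divided into 5 groups by UMI count. In the lowest group at 2 dpi (median 2130 UMIs) 43.6% of spots held Cxcl10+ monocytes (36.1 to 51.4%), and the next 4 groups held 26.2, 20.3, 16.9 and 15.8%. For inflammatory monocytes the shares were 16.9% (11.6 to 23.3%), 6.98, 11.05, 7.56 and 9.94%, highest in the lowest group but with overlapping intervals. At 5 dpi the Cxcl10+ shares were 7.49, 9.09, 7.53, 7.49 and 10.2%, and at 7 dpi 6.19, 3.11, 2.59, 4.66 and 8.81%, with overlapping intervals and no order by depth. Inflammatory spots were 6 or fewer in every group at 5 and 7 dpi.

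The theta itself was lower in deeper spots. Spearman's rho with the UMI count was -0.47, -0.32 and -0.33 for inflammatory and -0.48, -0.24 and -0.23 for Cxcl10+ monocytes at 2, 5 and 7 dpi. The lowest of the 27 thetas of a spot was also lower in deeper spots, with a rho of -0.82, -0.75 and -0.76. At 2 dpi its median was 0.00458 in the lowest UMI group and 0.000739 in the highest, so that in shallow spots every type had a larger theta at its smallest. In members, theta times the UMI count had a median of 150 for the 90 inflammatory spots and 179 for the 211 Cxcl10+ spots at 2 dpi, and 358 and 587 for Cxcl10+ spots at 5 and 7 dpi. The UMI count includes genes that the deconvolution left out, so this product is no count of assigned transcripts.

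**Figure D5:**
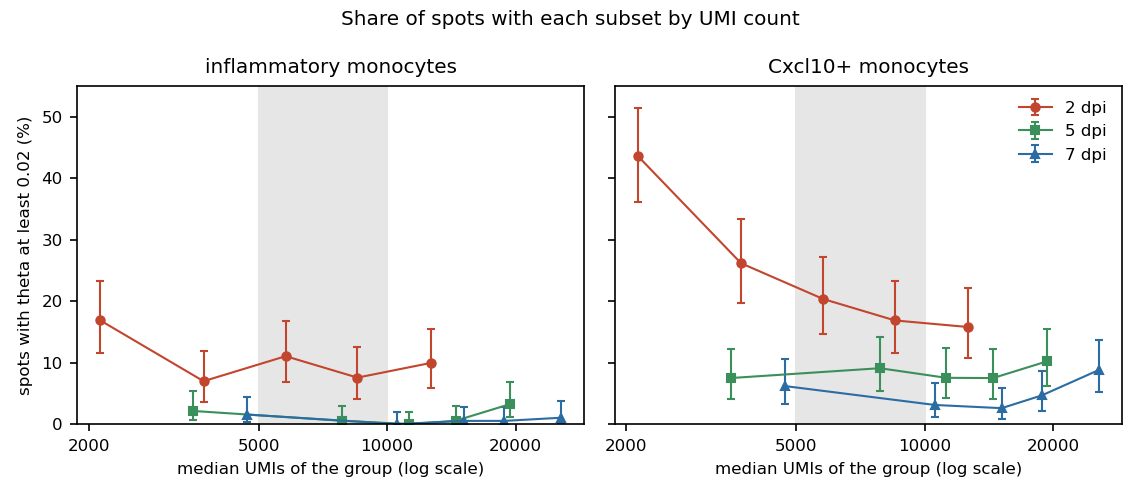
Share of spots with inflammatory (left) or Cxcl10+ (right) monocytes at a theta of at least 0.02 in 5 groups of spots by UMI count per section, against the median UMIs of the group (log scale), with exact 95% intervals and the window of 5000 to 10000 UMIs shaded. The Cxcl10+ share at 2 dpi runs from 43.6% in the lowest group to 15.8% in the highest.

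Spots with 5000 to 10000 UMIs, numbering 305, 255 and 163, were compared to bring the sections to a like depth. Members were 71 of 305 at 2 dpi (23.3%, 18.7 to 28.4%), 23 of 255 at 5 dpi (9.02%, 5.80 to 13.2%) and 9 of 163 at 7 dpi (5.52%, 2.56 to 10.2%). Cxcl10+ spots were 56, 22 and 9, or 18.4, 8.63 and 5.52%, and the share at 7 dpi was 3.33-fold lower than at 2 dpi in place of 4.84-fold. Inflammatory spots were 31, 2 and 1, or 10.2, 0.784 and 0.613%. The share was thus highest at 2 dpi in this window for both subsets, while the inflammatory shares at 5 and 7 dpi rested on 2 spots and 1 spot. The mean inflammatory theta in the window was 0.00877, 0.00326 and 0.00420 and the mean Cxcl10+ theta 0.0163, 0.00697 and 0.00661. For the inflammatory subset the 7 dpi mean was 2.09-fold below that at 2 dpi, compared with 2.81-fold over all spots.

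Sharing in the window was described at 2 dpi, since few members remained later. Of 31 inflammatory spots, 16 also held Cxcl10+ monocytes, 2.81 times the expected count. Patrolling monocytes were in 26 of these 31 and in 51 of 56 Cxcl10+ spots, 2.37 and 2.57 times the expected counts. M1 macrophages were in 12 and 24. Cx3cr1-hi M2 macrophages were in 3 of 31 inflammatory and 4 of 56 Cxcl10+ spots in the window, where 1.73 and 3.12 were expected. At 5 dpi, 6 of 22 Cxcl10+ spots held Cx3cr1-hi M2 macrophages (27.3%), compared with 53.8% over all depths, and at 7 dpi 4 of 9 did. In the window's spots without Cxcl10+ monocytes at 5 dpi, 6.01% held Cx3cr1-hi M2 macrophages.

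Genes and the mitochondrial and ribosomal protein percents kept their direction in the window. The ratios of UMI counts at 5 and 7 dpi and of hemoglobin percent at 5 dpi did not, but the window limits the UMI count itself. Members had more genes than comparison spots, with medians of 2493 and 1737 at 2 dpi, 2317 against 1912 at 5 dpi and 2558 against 2126 at 7 dpi, and 100% of members lay above the comparison median in each section. Mitochondrial percent was 12.9 and 34.8 at 2 dpi, 11.5 and 26.4 at 5 dpi, and 10.6 and 21.0 at 7 dpi. Ribosomal protein percent was 9.41 and 4.40, 10.7 and 6.01, and 10.8 and 6.58. Patrolling monocytes were 12.4-, 3.05- and 1.68-fold higher in the window's members. Folds were smaller in the window than over all depths for Cx3cr1-hi M2 macrophages, for dendritic cells at 5 and 7 dpi and for NK cells at 7 dpi. At 7 dpi dendritic cells were 4.23% of the summed immune theta of the window's 9 members and 7.21% in its 138 comparison spots. Over all depths these parts were 13.3 and 7.94%.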

How the data were processed

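Values per spot were read for 3 Visium sections, assigned to time points by the treatment label. Per the labels' processing notes and the study's methods, the authors used Space Ranger 1.0 and Seurat 3.2.1 on the mm10 genome, chose spots over tissue, and deconvolved each spot with BayesPrism against a single-cell compendium, leaving out mitochondrial and ribosomal protein genes. They deposited UMI counts and gene counts per spot (not normalized), the percent of UMIs from mitochondrial, ribosomal protein and hemoglobin genes, and theta, a fraction from 0 to 1. The lowest UMI count of a spot was 1003, 1059 or 1088 in the 3 sections. The table has 27 types, more than the methods name. Image alignments carry no barcodes and were not used.

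Shares, exact intervals, medians, means, ratios and rank correlations were computed in Python 3.11.15 (numpy 2.4.6, pandas 2.3.3, scipy 1.17.1). Expected shared spots were the product of 2 spot counts over all spots, with a ratio only from 5 expected. No further filter was applied and no doublet caller was run on spots. The code was tested on simulated data. Beside the types asked about, types were named if their mean theta in members was at least 0.01 and at least 2-fold higher or lower than in comparison spots. Fusing myocytes and both myonuclei were always named. Members, types and alternatives were chosen with earlier results of these data known.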

Additional observations from a re-analysis of the deposited data

Results flagged for a closer look

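The depth of the monocyte spots relative to comparison spots went in different directions at different times. The median UMI count of members was 0.609 times that of comparison spots at 2 dpi, 1.01 times at 5 dpi and 1.16 times at 7 dpi. The difference between time points was not tested, as each had 1 section. In spots with 5000 to 10000 UMIs the ratios were 0.881, 0.842 and 0.974. That window limits the UMI count itself, so these ratios cannot check the difference in depth.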

How the results depend on the processing

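No paired analysis was possible because the labels give no replicate numbers that pair sections and each time point had 1 section, and none could be left out for the same reason. Of 418 values recomputed under an alternative, 249 stayed within the limits set for their kind, 146 moved beyond them in the same direction and 23 changed direction. The cause was not tested, except that rescaling theta changes its denominator by construction. The ratio of the member share at 7 dpi to that at 2 dpi was 0.192, 0.341 at a minimum theta of 0.01 and 0.384 without myonuclei, and the Cxcl10+ ratio was 0.207 and, at 0.01, 0.315. The ratio of mean inflammatory theta was 0.356, 0.497 from medians, 0.479 at 5000 to 10000 UMIs and 0.975 as a part of the immune theta (1.07 for 5 over 2 dpi). For Cxcl10+ it was 0.376, 0.523 from medians and 1.03 as a part of the immune theta (1.27 for 5 over 2 dpi). The part of the immune theta, and the means without the highest spot, were added after seeing the data. Pearson's r between the subsets was 0.28, 0.32 and 0.26, and the rank correlation without myonuclei 0.42, 0.39 and 0.42. The rank correlation of inflammatory monocytes with Cx3cr1-hi M2 macrophages at 7 dpi was 0.56 and, without myonuclei, -0.0536. The UMI ratio of members to comparison spots at 2 dpi was 0.784 at a minimum of 0.05 and 0.881 in the window. At a minimum of 0.01 it was 0.957 at 5 dpi and 0.885 at 7 dpi, and in the window 0.842 and 0.974. The UMI ratios in the window are limited by construction, because the window selects spots by UMI count. The ratio of hemoglobin percent at 5 dpi was 0.821 and, in the window, 1.05. Without myonuclei, 14 ratios of mean theta were below 1. At 2 dpi they were 0.832 for committed myoblasts, 0.962 for dendritic cells, 0.576 for stem-like endothelial cells, 0.635 for pro-remodeling FAPs, 0.699 for stem FAPs, 0.747 for fusing myocytes, 0.581 for quiescent MuSCs and 0.624 for tenocytes. At 5 dpi they were 0.832 for activated MuSCs, 0.795 for adipogenic FAPs and 0.874 for M1 macrophages, and at 7 dpi 0.982 for fusing myocytes, 0.988 for M1 macrophages and 0.838 for patrolling monocytes. No share of inflammatory spots at a minimum of 0.05 or in the window was set against another section, because 3 or fewer spots held the subset at 5 and 7 dpi.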
